A study of Mus musculus with 6 samples.

Results

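The genes examined were 6 BMP ligands (*Bmp2*, *Bmp4*, *Bmp5*, *Bmp6*, *Bmp7* and *Bmp10*) and 4 extracellular BMP antagonists (*Nog*, *Grem1*, *Bmper* and *Chrdl1*). They were found by matching Ensembl mouse identifiers to these symbols in a table of counts per gene. All 10 were among the 28777 genes listed, and all 10 were among the 28157 with more than 5 reads in total, which were tested. The table holds 6 bulk RNA-Seq libraries of the embryonic cardiac outflow tract (OFT) at E13.5, a stage with endocardial cushions from which the semilunar valves form. Of these libraries, 3 are labelled *Notch1*+/-; *Nos3*-/- (mutant) and 3 wildtype. The mutant embryos carry 1 disrupted allele of *Notch1*, a receptor of juxtacrine signaling, and none intact of *Nos3*, the endothelial nitric oxide synthase. Both are germline knockouts present in every cell, all embryos were on a C57/BL6J background, and the wildtype embryos were littermates with both genes intact. Each library is a pool of 3 OFTs cut off below the conal cushions, so that the differences among the 3 embryos of a pool are not seen, and the libraries held between 34729103 and 44387490 counts. For wildtype replicates 2 and 3 the title of the sample and its description carry each other's library number, so which of the pair is number 2 is uncertain.

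BMPs are secreted dimers of the TGF-β superfamily. They join type I and type II receptor kinases on the cell surface, which phosphorylate Smad1, Smad5 and Smad9 so that these enter the nucleus with Smad4. *Bmp2* and *Bmp4* form a closely related pair and *Bmp5*, *Bmp6* and *Bmp7* a second group, whereas *Bmp10* stands closer to *Gdf2* and is made by trabecular and atrial myocardium. In the OFT, BMP ligands from the myocardium act on the endocardium and the cushion mesenchyme, and ligand-binding antagonists such as Noggin (*Nog*), Gremlin 1 (*Grem1*), BMP endothelial regulator (*Bmper*) and chordin-like 1 (*Chrdl1*) set how much ligand reaches the receptors.

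The targeted genes were looked at first because they check the labels. *Nos3* had 31.8, 47.2 and 48.1 CPM (counts normalized for library size with TMM factors) in wildtype replicates 1, 2 and 3, and 22.1, 22.0 and 20.4 CPM in mutant replicates 1, 2 and 3, the order kept for all values below. The labels did not overlap. Its log2 fold change was −0.98 (SE 0.15, edgeR adjusted p = 0.128), and edgeR did not call it. *Nos3* was called in 5 of 17 alternative fits, among them DESeq2 (adjusted p = 9.4e-06). *Notch1* had 74.3, 88.2 and 83.6 CPM under the wildtype label and 155, 161 and 139 CPM under the mutant label. *Notch1* was thus higher where a heterozygous loss is labelled (log2 fold change 0.89, SE 0.10, edgeR adjusted p = 0.0313), against its label. The value stayed between 0.67 and 0.99 in the alternatives, and DESeq2 called *Notch1* (adjusted p = 6.4e-11). The edgeR call was lost with GC and length offsets (edgeR adjusted p = 0.0773) and with a Myocardial covariate (0.124). It was also lost without any single library other than wildtype replicate 1 (0.0917 to 0.339). All directions here are therefore those of libraries labelled mutant relative to libraries labelled wildtype. Whether reads from a disrupted *Notch1* or *Nos3* allele are counted cannot be seen in counts per gene.

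Promoter sequences (250 bases before to 50 after the start site) were at hand in RefSeq, build GRCm38.p6, for 6 of the 10 genes: *Bmp4*, *Bmp5*, *Bmp6*, *Bmp10*, *Grem1* and *Bmper*. They were searched on both strands for TGGGAA, the core of the site bound by Rbpj, the nuclear partner of Notch, and for GGCGCC, a GC-rich Smad site. TGGGAA lay in 2 of the 6, those of *Bmp10* and *Bmp5*, and in 25.6% of 32851 promoters of the same length. GGCGCC lay in 1 of the 6, that of *Grem1*, with its first base 78 bases before the start, and in 11.9% of all promoters, and no promoter of the 6 held both motifs. A match of letters is not a binding site. The sequences below are those of the genes whose values varied most among libraries (*Bmp10*) or whose groups did not overlap (*Bmp5*, *Bmp6* and *Bmper*), written 5′ to 3′ on the strand of the gene with a motif match in capitals. In *Bmp10* (chr6:87428744-87429043, plus strand) the match starts 224 bases before the start site. In *Bmp5* (chr9:75775115-75775414, plus strand) it starts 23 bases before it and reads as the reverse complement, TTCCCA. Those of *Bmp6* (chr13:38345466-38345765, plus strand, with a RefSeq start inside the GENCODE gene) and *Bmper* (chr9:23222826-23223125, plus strand) held neither motif.
Bmp10: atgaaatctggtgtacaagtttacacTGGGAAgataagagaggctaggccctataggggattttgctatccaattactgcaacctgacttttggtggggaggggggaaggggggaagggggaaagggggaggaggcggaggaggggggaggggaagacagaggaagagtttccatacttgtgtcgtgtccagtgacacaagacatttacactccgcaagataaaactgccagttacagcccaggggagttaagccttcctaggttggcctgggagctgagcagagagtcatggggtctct
Bmp5: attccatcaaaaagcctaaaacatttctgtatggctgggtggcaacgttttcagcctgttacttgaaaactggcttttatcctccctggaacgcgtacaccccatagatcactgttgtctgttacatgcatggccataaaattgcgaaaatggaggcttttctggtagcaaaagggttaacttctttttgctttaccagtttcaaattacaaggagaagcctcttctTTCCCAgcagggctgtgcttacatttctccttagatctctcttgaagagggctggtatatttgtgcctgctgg
Bmp6: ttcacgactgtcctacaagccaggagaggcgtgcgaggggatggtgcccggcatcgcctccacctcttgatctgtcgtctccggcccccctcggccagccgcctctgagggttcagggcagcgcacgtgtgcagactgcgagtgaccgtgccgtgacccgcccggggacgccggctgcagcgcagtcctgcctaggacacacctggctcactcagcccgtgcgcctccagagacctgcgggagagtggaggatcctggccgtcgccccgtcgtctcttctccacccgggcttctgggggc
Bmper: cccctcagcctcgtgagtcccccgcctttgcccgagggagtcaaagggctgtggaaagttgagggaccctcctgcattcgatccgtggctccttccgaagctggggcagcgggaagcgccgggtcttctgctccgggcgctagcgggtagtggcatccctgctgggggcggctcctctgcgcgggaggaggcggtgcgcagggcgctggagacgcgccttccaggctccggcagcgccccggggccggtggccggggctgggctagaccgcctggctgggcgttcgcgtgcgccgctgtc

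Levels of different genes were compared per length, as CPM per kilobase of exon averaged over the 6 libraries. *Bmp7* (25.5 ± 6.78 CPM per kb, SD over 6 libraries) and *Bmp4* (24.4 ± 8.58) stood at the top and did not differ in order beyond their spread, with *Bmp7* ahead in 3 of 6 libraries. *Bmp6* followed with 11.6 ± 4.77 and was below *Bmp4* in all 6 libraries. *Bmper* (6.80 ± 2.19), the most abundant of the antagonists, was below *Bmp6* in all 6 libraries. *Bmper* and *Bmp2* (6.70 ± 2.17) changed places, with *Bmper* ahead in 3 of 6. *Bmp10* had a mean of 4.77 ± 5.59, and its SD exceeded its mean. It was below *Bmp2* in 5 of 6 libraries and above *Bmp5* (2.61 ± 0.798) in only 2 of 6, so its place in the order is not settled. *Nog* (0.967 ± 0.472) was below *Bmp5* in all 6 libraries and above *Grem1* (0.837 ± 0.726) in 5 of 6, and *Grem1* was above *Chrdl1* (0.117 ± 0.0277) in 4 of 6. Without division by length the ranks were the same except that *Grem1* passed *Nog*.

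Each gene was then compared between the labels, the question being which BMP ligands and antagonists differ in the compound mutant OFT. By edgeR's quasi-likelihood test none of the 10 was called (threshold 0.05 on the p adjusted over the 28157 genes tested), beside 0.0213% of all genes, or 6 genes. At an unadjusted p under 0.05, 6 of the 10 stood out, beside 16.1% of all genes: *Bmp2*, *Bmp6*, *Nog* and *Bmper* lay higher under the mutant label, and *Bmp5* and *Bmp7* lower. The 3 values of each label did not overlap for 5 of the 10, which were *Bmp6*, *Nog*, *Bmper*, *Bmp5* and *Bmp7*, beside 19.6% of all genes. DESeq2 called 3 of the 10 by its Wald test (*Bmp5*, *Bmp6* and *Bmper*), beside 2.64% of all genes. In that share, 9830 genes without a DESeq2 adjusted p are counted as not called. For *Bmp10* and *Grem1* DESeq2 gave no p. Without wildtype replicate 1 edgeR called 6 of the 10 (*Bmp2*, *Bmp5*, *Bmp6*, *Nog*, *Grem1* and *Bmper*), beside 9.45% of the 27450 genes then tested. Wildtype replicate 1 was the wildtype library nearest the mutant ones in the sums of Myocardial and of Mesenchymal markers given below. Leaving it out thus widened the gap between the labels in these sums. When any other single library was left out, edgeR called none of the 10. For a single gene the two-sided exact permutation test of 3 against 3 libraries cannot give a p under 0.1, and it gave 0.1 for the 5 genes without overlap. In bulk tissue, fewer cells of a type and less RNA per cell cannot be told apart.

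**Figure D1:**
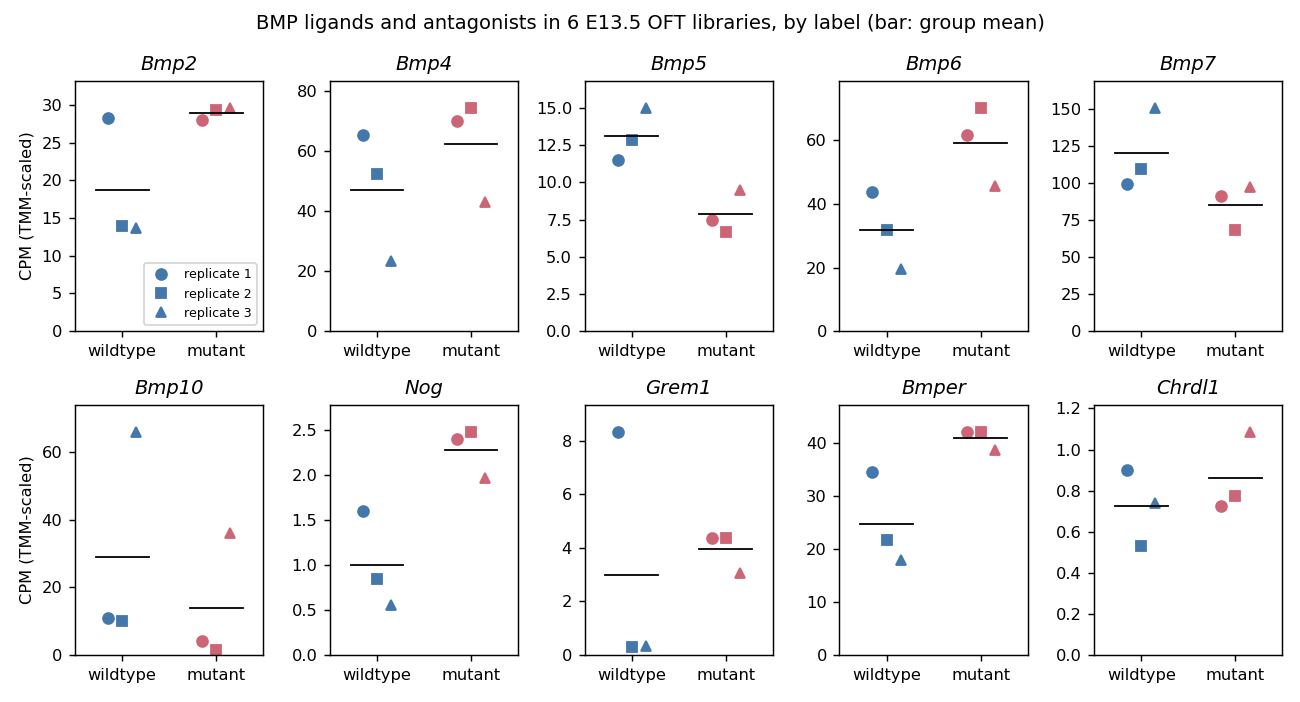
CPM (y axis, TMM-scaled, from 0) of each of the 10 genes in the 3 libraries labelled wildtype (blue) and the 3 labelled mutant (red), with the replicate number as the marker shape and the group mean as a bar. The labels do not overlap for *Bmp5*, *Bmp6*, *Bmp7*, *Nog* and *Bmper*, while *Bmp10* is high in replicate 3 of each label and *Grem1* is high in wildtype replicate 1.

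*Bmp2* (chr2:133552159-133562885), which drives the transition of endocardium to cushion mesenchyme, had 28.2, 14.0 and 13.7 CPM in the wildtype libraries and 27.96, 29.3 and 29.6 CPM in the mutant ones. The mutant libraries lay within 1.06-fold of each other, and wildtype replicate 1 lay among them while the other wildtype libraries had about the same lower value. Its log2 fold change was 0.63 (SE 0.23, edgeR adjusted p = 0.250). Without wildtype replicate 1, the wildtype library nearest the mutant ones, it was 1.06 (SE 0.09) and called (edgeR adjusted p = 0.00394). Without any other single library it was not called (edgeR adjusted p from 0.30 to 0.64).

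*Bmp4* (chr14:46383520-46390669), a ligand of the OFT myocardium and second heart field, had 65.5, 52.2 and 23.4 CPM under the wildtype label and 70.0, 74.4 and 42.97 CPM under the mutant label. Replicate 3 was the lowest library of each label, and the labels overlapped. The log2 fold change of 0.41 (SE 0.31, edgeR adjusted p = 0.547) did not pass the test. Of its exonic bases, 89 are shared with *Gm15217* on the opposite strand, and whether the authors' counting used the strand was not given in the sources used here, so a part of its reads is uncertain.

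*Bmp6* (chr13:38345107-38500302), a member of the *Bmp5*, *Bmp6* and *Bmp7* group expressed in the OFT and its cushions, had 43.8, 31.8 and 19.6 CPM under the wildtype label and 61.6, 70.1 and 45.6 CPM under the mutant label. Every mutant library lay above every wildtype library, though mutant replicate 3 and wildtype replicate 1 lay close together. The means were 59.1 ± 12.5 and 31.7 ± 12.1 CPM (SD, n = 3 each), a log2 fold change of 0.89 (SE 0.25) that edgeR did not call (adjusted p = 0.194) and DESeq2 called (adjusted p = 0.0145). *Bmp6* shares 224 exonic bases with *Txndc5* on the opposite strand, so a part of its reads is uncertain too.

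*Bmp5* (chr9:75775364-75900310), of the same group and expressed in myocardium, had 11.5, 12.9 and 15.01 CPM under the wildtype label and 7.47, 6.70 and 9.47 CPM under the mutant label. Here every mutant library lay below every wildtype library. The log2 fold change was −0.73 (SE 0.16), with the smallest unadjusted p of the 10 genes (edgeR adjusted p = 0.181), and DESeq2 called it (adjusted p = 0.00885). The annotation places an antisense gene, *Gm26903*, on 1878 of its 4025 exonic bases. *Gm26903* is not among the genes listed, and the strand setting is not given, so a part of the *Bmp5* reads is uncertain.

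*Bmp7* (chr2:172868012-172940321), the most abundant ligand in CPM and broadly expressed in the heart, had 99.5, 109 and 150 CPM under the wildtype label and 90.9, 68.0 and 96.8 CPM under the mutant label. The labels did not overlap, but mutant replicate 3 and wildtype replicate 1 were nearly level. The log2 fold change was −0.49 (SE 0.17, edgeR adjusted p = 0.234), and by DESeq2 the adjusted p was 0.0866. Thus *Bmp6* lay on the higher side and its nearest relatives *Bmp5* and *Bmp7* on the lower side in the same libraries.

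*Bmp10* (chr6:87428994-87437677), a ligand of trabecular and atrial myocardium that promotes growth of the ventricular wall, had 10.9, 9.92 and 66.0 CPM under the wildtype label and 4.07, 1.55 and 36.1 CPM under the mutant label. It spanned 42.7-fold over the 6 libraries, more than any other of the 10 genes, and was highest in replicate 3 of each label. The log2 fold change of −1.05 had an SE of 0.96 (edgeR adjusted p = 0.627). Leaving out wildtype replicate 3 turned it to 0.42, and leaving out mutant replicate 3 took it to −3.35, neither of them called. In replicates 1 and 2 the mutant values lay below the wildtype ones. The size thus depended on which replicate 3 library was kept, and the sign turned with wildtype replicate 3 out and mutant replicate 3 kept.

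**Figure D2:**
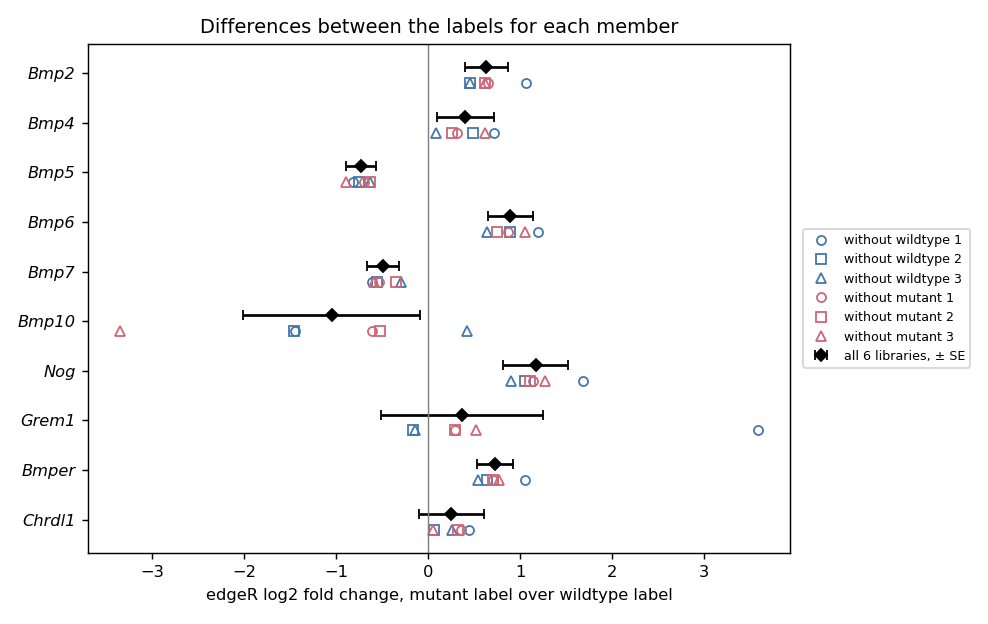
Log2 fold change of each gene, mutant label over wildtype label (x axis), with ± SE from edgeR on all 6 libraries (black diamonds) and from the 6 fits that each left out 1 library (open markers). Without wildtype replicate 1, *Grem1* moves from 0.37 to 3.59 and *Bmp2* from 0.63 to 1.06, and *Bmp10* lies between −3.35 and 0.42.

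Summed over the 6 ligands, the level was 78.3, 67.9 and 75.2 CPM per kb in the wildtype libraries and 80.2, 78.3 and 73.6 CPM per kb in the mutant ones. The summed ligand level thus overlapped between the labels. The shares of 2 of the 6 ligands did not overlap. *Bmp6* made up 19.5% ± 3.55 of the sum under the mutant label and 11.01% ± 3.92 under the wildtype label (SD, n = 3 each), with no overlap. *Bmp5* made up 2.55% ± 0.571 and 4.44% ± 0.697, again with no overlap. The other 4 ligands overlapped in their shares. *Bmp7* made up 27.5% ± 5.59 under the mutant label and 40.5% ± 9.10 under the wildtype label, and *Bmp4* 35.7% ± 8.61 and 28.4% ± 12.7. *Bmp2* held 10.6% ± 0.749 and 7.02% ± 2.71, and *Bmp10* 4.16% ± 5.86 and 8.63% ± 9.46. By group, *Bmp2* and *Bmp4* together had 37.1, 27.2 and 14.3 CPM per kb in the wildtype libraries and 39.0, 41.4 and 27.4 in the mutant ones. *Bmp5*, *Bmp6* and *Bmp7* together had 38.8, 38.5 and 46.2 in the wildtype libraries and 40.3, 36.6 and 38.1 in the mutant ones, the higher *Bmp6* standing beside the lower *Bmp5* and *Bmp7*. A share of a sum is not independent of the other shares, and no test was made on these values.

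**Figure D3:**
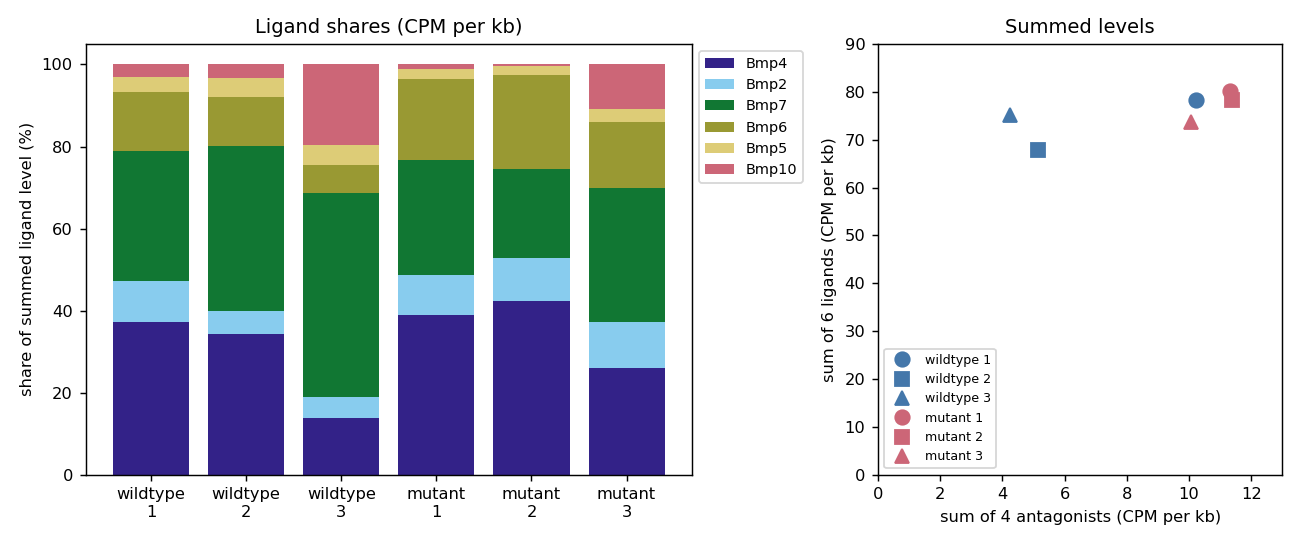
Left, share of each ligand in the summed ligand level (y axis, percent of CPM per kb) in each library. Right, summed level of the 6 ligands (y axis, CPM per kb) against that of the 4 antagonists (x axis, CPM per kb), where ligand sums lie between 67.9 and 80.2 while wildtype replicates 2 and 3 stand apart with antagonist sums of 5.13 and 4.24.

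Among the antagonists, *Nog* (chr11:89300638-89302332), which encodes Noggin and binds *Bmp2*, *Bmp4* and *Bmp7* products, had 1.60, 0.84 and 0.55 CPM under the wildtype label and 2.40, 2.48 and 1.96 CPM under the mutant label. These are low values, from 71, 35 and 18 counts and from 96, 93 and 74 counts, and the labels did not overlap. Its log2 fold change of 1.17 (SE 0.35, edgeR adjusted p = 0.203) was the largest of the 10 and was not called. By DESeq2 its adjusted p was 0.0596.

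*Bmper* (chr9:23223076-23485200), a secreted regulator that binds BMPs and can restrain or promote their signal, had 34.5, 21.7 and 18.0 CPM under the wildtype label and 42.2, 42.2 and 38.7 CPM under the mutant label. The mutant libraries lay within 1.09-fold of each other and above all wildtype libraries, of which replicate 1 came closest. The log2 fold change was 0.73 (SE 0.20, edgeR adjusted p = 0.194), and DESeq2 called it (adjusted p = 0.0213). Without wildtype replicate 1 it was 1.05 (SE 0.11, edgeR adjusted p = 0.00506). Without any other single library it was not called (edgeR adjusted p from 0.15 to 0.64).

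*Grem1* (chr2:113746164-113758646), a binder of *Bmp2* and *Bmp4* products, had 8.35, 0.31 and 0.34 CPM under the wildtype label, from 371, 13 and 11 counts. Under the mutant label it had 4.37, 4.38 and 3.08 CPM. Wildtype replicate 1 was 24.6-fold above the next wildtype library and 1.91-fold above the highest mutant library, so that the wildtype libraries lay on both sides of the mutant ones. The log2 fold change was 0.37 (SE 0.88, edgeR adjusted p = 0.874) with all libraries and 3.59 (SE 0.31, edgeR adjusted p = 0.0038) without wildtype replicate 1, and it was −0.16 without wildtype replicate 2 and −0.14 without wildtype replicate 3, neither called. Wildtype replicate 1 also held the highest wildtype value of *Bmp2*, *Bmp4*, *Bmp6*, *Nog*, *Bmper* and *Chrdl1*.

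*Chrdl1* (chrX:143285674-143394262), a relative of chordin, was the least abundant of the 10 with 0.90, 0.53 and 0.74 CPM under the wildtype label and 0.72, 0.77 and 1.09 CPM under the mutant label. Its labels overlapped, and its log2 fold change of 0.25, on between 22 and 41 counts per library, was smaller than its SE of 0.35 (edgeR adjusted p = 0.771). Summed per length, the 4 antagonists had 10.2, 5.13 and 4.24 CPM per kb in the wildtype libraries and 11.3, 11.4 and 10.1 CPM per kb in the mutant ones. Most of this sum was *Bmper*, with 7.14, 4.48 and 3.72 CPM per kb in the wildtype libraries and 8.74, 8.73 and 8.01 in the mutant ones. More abundant modulators such as *Fstl1* (mean 320 CPM per kb) and *Twsg1* (28.9) are not in the sum. The ratio of summed ligands to summed antagonists was 7.66, 13.2 and 17.7 in the wildtype libraries and 7.08, 6.89 and 7.31 in the mutant ones. Wildtype replicate 1 was near the mutant libraries in this ratio, and wildtype replicates 2 and 3 lay above them. The summed Mesenchymal markers put all 6 libraries in the same order as the summed antagonists, an order looked at after the values were seen. Their sums were 8011, 5402 and 4092 CPM in the wildtype libraries and 8728, 9517 and 7430 CPM in the mutant ones. The summed Liver and Blood markers also set wildtype replicates 2 and 3 apart from the other libraries, but did not follow or reverse that order throughout. The 6 Liver markers summed to 2.11, 97.5 and 27.8 CPM in the wildtype libraries and to between 3.47 and 6.43 CPM in the mutant ones, and 6 of 6 had lower values under the mutant label, 5 at an unadjusted p under 0.05. The 6 Blood markers summed to 2088, 4787 and 4160 CPM in the wildtype libraries and to between 2469 and 2571 CPM in the mutant ones. Of these markers 6 of 6 were lower and 5 at that p, beside 13751 and 2204 of all 28157 genes tested. Wildtype replicates 2 and 3, which were low in *Grem1* and *Bmp2*, were thus low in Mesenchymal markers and high in Liver and Blood markers. The part of these tissues in the antagonist values was not tested. Transcript levels are not amounts of secreted protein.

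The libraries also differed in markers of the tissues in the dissected piece, and these differences ran along with the values above. The summed CPM of 12 Myocardial markers was 28791, 30758 and 40722 in the wildtype libraries and 24104, 20178 and 28128 in the mutant ones. Under the mutant label 12 of 12 were lower (11 of 12 when scaled by library size only), 10 of them at an unadjusted p under 0.05. Of all 28157 genes tested, 13751 were lower, 2204 of them at that p, and 14406 were higher. The 8 Mesenchymal markers were all higher, with sums of 8011, 5402 and 4092 CPM under the wildtype label and 8728, 9517 and 7430 CPM under the mutant label. The 5 Ventricular markers lay between 4518 and 8828 CPM under the wildtype label and between 2511 and 4578 CPM under the mutant label, and the 6 Atrial ones between 2841 and 4148 CPM and between 2277 and 3013 CPM. The Atrial sum was mostly *Myl4* and *Myl7*, and 3 of the 6 Atrial markers had higher and 3 lower values under the mutant label. No defining marker of any list that was listed in the table was at the floor of 3 counts in all libraries. From the lowest to the highest Myocardial sum the libraries ran mutant 2, mutant 1, mutant 3, wildtype 1, wildtype 2 and wildtype 3. *Bmp5* and *Bmp7* stood in exactly this order in all 6 libraries, as did 1.58% of all genes tested. *Bmp6* and *Nog* stood in exactly the reverse order, as did 1.3% of all genes tested. Since the Myocardial sums themselves did not overlap between the labels, a gene in either order cannot overlap either, and of the 5531 genes without overlap 14.6% stood in one of the orders. The order was looked at after the values of the BMP genes were seen. With the mean of the Myocardial markers as a covariate, which itself differs between the labels, the log2 fold changes were −0.34 for *Bmp5*, 0.047 for *Bmp7*, 0.12 for *Bmp6*, 0.46 for *Nog* and 0.30 for *Bmper*, and none was called. The part of tissue makeup in these differences was not tested and cannot be told apart from the labels in 6 libraries.

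**Figure D4:**
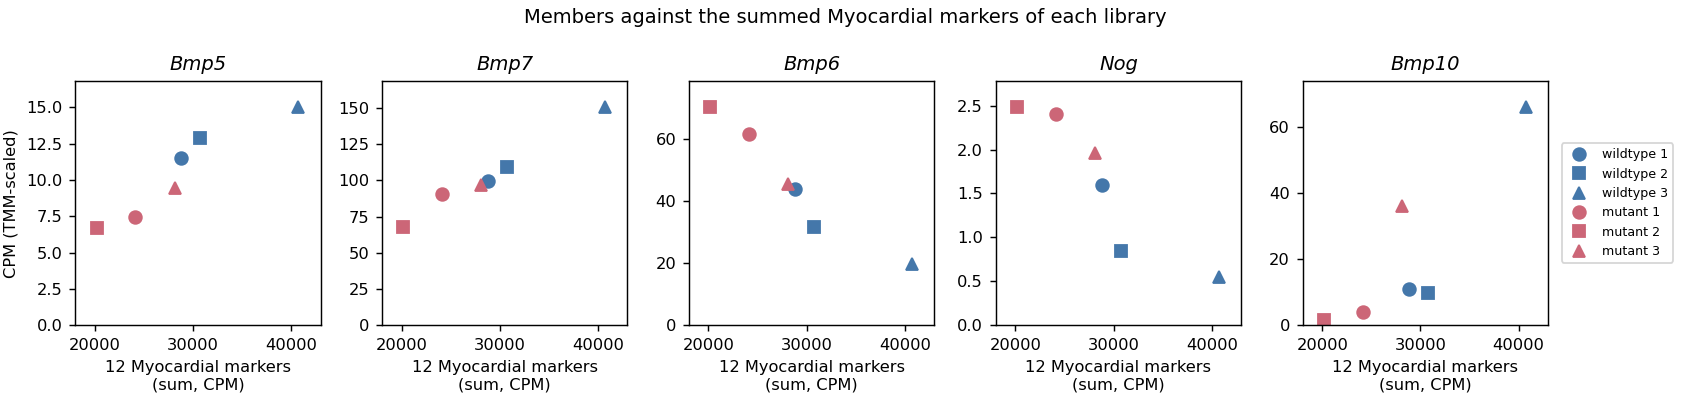
CPM of 5 genes (y axes, from 0) against the summed CPM of the 12 Myocardial markers (x axis) in the libraries labelled wildtype (blue) and mutant (red). *Bmp5* and *Bmp7* go up and *Bmp6* and *Nog* go down along the axis without exception. *Bmp10* is lowest and highest in the libraries at the ends of the axis. It departs from the order in between, with mutant replicate 3 above wildtype replicates 1 and 2, and wildtype replicate 1 above wildtype replicate 2.

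For 4 of the genes, the 3 most alike in pattern were sought among 16654 others with a mean of at least 1 CPM, by the root mean square difference of centred log2 CPM over the 6 libraries. For *Bmp10* these were *Nppa*, *Gtsf1* and *Ntn1*, with differences of 0.33, 0.61 and 0.83 against a range of *Bmp10* itself of 5.37 on this scale. *Nppa*, the atrial natriuretic peptide of atrial and trabecular myocardium, had 42.9, 34.8 and 212 CPM under the wildtype label and 25.7, 7.84 and 130 CPM under the mutant label. It too was highest in replicate 3 of each label and lowest in mutant replicate 2. For *Nog* the most alike were *Chadl* (0.073), *Tubb3* (0.13) and *Chst3* (0.13). For *Bmp6* they were *Ltbp3* (0.050), a binder of latent TGF-β, *Nfatc4* (0.055) and the fibrillar collagen *Col27a1* (0.072). For *Bmp4* they were *Lox* (0.076), the lysyl oxidase that cross-links collagen and elastin, *Zcchc18* (0.087) and *Epha1* (0.097). *Tubb3*, a tubulin of neurons, is 1 of the 6 Neuronal markers, whose sum was 31.8, 28.7 and 13.4 CPM in the wildtype libraries and 42.9, 46.3 and 30.1 CPM in the mutant ones. These likenesses are descriptions over 6 points that share library and tissue makeup.

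The rest of the pathway was read from lists of 54 other genes, chosen with earlier results of these data known. Of these genes 52 were tested and none was called by edgeR. At an unadjusted p under 0.05, 14 lay higher and 1 lower, beside 2318 higher and 2204 lower of all 28157 genes tested. Of the 52, 36 had a positive value, beside 14406 of the 28157. The median log2 fold change of the 52 was 0.22, beside 0.011 for all genes tested. Of 8 other BMP and GDF ligands none reached an unadjusted p under 0.05. The most abundant per length were *Gdf6* (log2 fold change −0.01) and *Bmp3* (0.31). Of 15 other antagonists and modulators, 12 had a positive value, 4 higher and 1 lower reached that p, and the list had a median of 0.30. The most abundant were *Fstl1* (0.24), a follistatin-like glycoprotein, *Twsg1* (0.05), which aids chordin, *Nbl1* (−0.03) and *Smoc2* (0.18). Of the proteases that cleave chordin, *Bmp1* had 0.61 (SE 0.15, edgeR adjusted p = 0.181), *Tll1* −0.64 (edgeR adjusted p = 0.355), and *Tll2* had at most 3 counts in each mutant library.

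Of 10 receptors and coreceptors, 1 (*Acvrl1*, 0.35) reached an unadjusted p under 0.05, and the median was −0.0016. The most abundant were *Eng* (0.02), a coreceptor of endothelium, the type I receptors *Bmpr1a* (−0.07) and *Acvr1* (0.07), and the type II receptor *Bmpr2* (−0.05), and the signs of *Bmpr1a* and *Bmpr2* turned when scaled by library size only. The 4 Smads all had positive values, with 0.13 for *Smad4* and 0.24 for *Smad5*, of which only *Smad5* reached an unadjusted p under 0.05. The 12 genes that BMP signals are known to induce were listed with earlier results of these data known. All 12 had positive values (11 without wildtype replicate 3), beside 14406 of the 28157 genes tested. Of the 12, 7 reached an unadjusted p under 0.05 (16.1% of all genes). The labels did not overlap for 5 (19.6% of all genes), and DESeq2 called 4 (2.64% of all genes). The list had a median of 0.50. The most abundant of them encode inhibitors of DNA binding, *Id3* (0.49), *Id1* (0.53) and *Id2* (0.14), and the T-box factor *Tbx20* (0.39). Without wildtype replicate 1 edgeR called 6 of the 12, beside 9.45% of all genes in that fit. When any other single library was left out, edgeR called none of the 12. With the Myocardial covariate *Id3* had 0.017, *Id1* −0.031, *Id2* −0.23 and *Tbx20* −0.023. None of *Id1*, *Id2*, *Id3* and *Tbx20* was among those that DESeq2 called. The covariate fit is not given here for the other targets. Among these were *Atoh8* (0.67) and *Smad7* (0.65), which had the smallest unadjusted edgeR p of the list. The 12 target genes lay on the side of the Mesenchymal markers, and the part of tissue makeup in them was not tested.

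**Figure D5:**
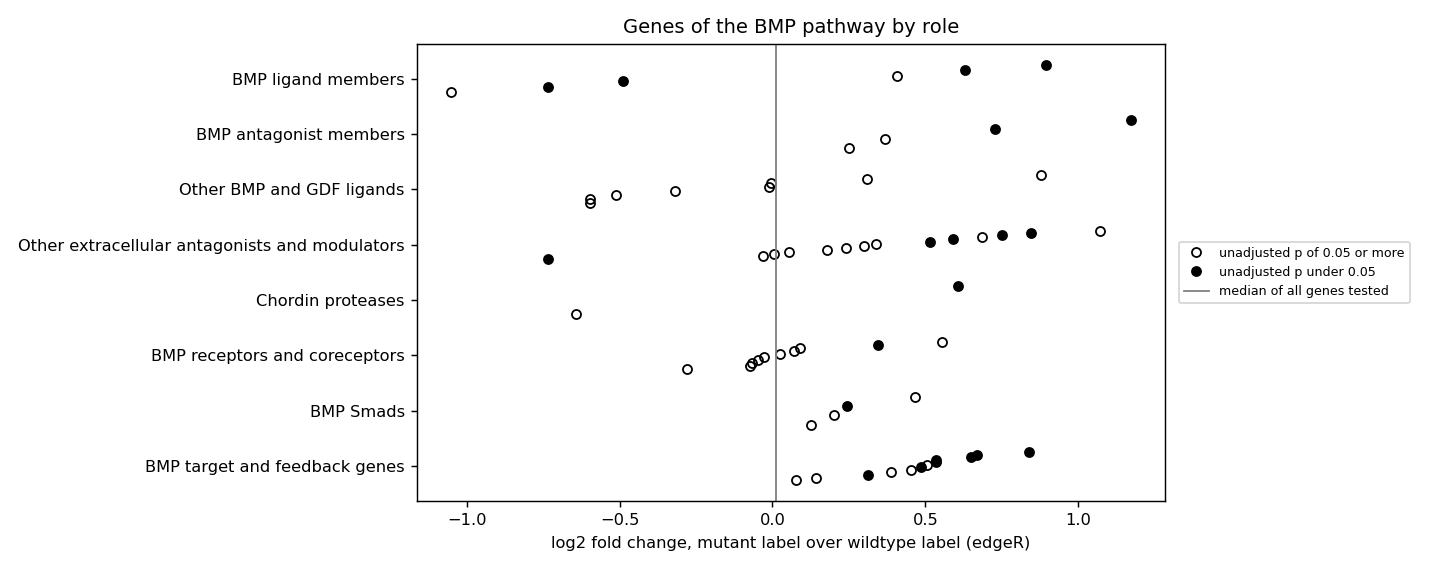
Each pathway gene's log2 fold change (x axis, edgeR, mutant label over wildtype label) in rows by role, filled where the unadjusted p was under 0.05, and a line at the median of all genes tested. Receptors gather near the line (median −0.0016), all 12 target genes lie to its right (median 0.50), and 2 genes with at most 3 counts in every library of a label are not drawn.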

How the data were processed

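Libraries of stranded total RNA, depleted of ribosomal RNA, were sequenced as paired-end reads of 50 bases. The authors trimmed 3 bases from the first read, aligned with TopHat2 2.1.0 (Bowtie2) to mm10 and used GenomicAlignments to count reads over exons, and deposited counts per Ensembl gene without normalization (listed from a sum of 5 reads). The submitters' processing notes also name DESeq2 1.26.0. The annotation release and strand setting are not given in the sources used here.

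Groups follow the labels. The software was R 4.3.3, edgeR 4.0.16 (TMM, quasi-likelihood test, 28157 genes with more than 5 reads, Benjamini-Hochberg adjustment), DESeq2 1.42.0 and limma-voom from limma 3.58.1. The biological coefficient of variation was 0.17 and the prior degrees of freedom 6.67. P-values set the difference between the labels against the spread between these pooled libraries, which includes differences in dissection between pools. Each edgeR SE was the log2 fold change without its sign, divided by the square root of the F statistic. Neither SEs nor the floor of 3 counts cover a difference in dissection that goes with the label. Code was tested on simulated counts. Permutation tests used log2 of CPM plus 0.5. Positions and exonic lengths came from GENCODE for mm10, which holds 28723 of the 28777 identifiers.

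The genes, pathway lists and markers were chosen with earlier results of these data known. Named were all 10 genes, *Nos3* and *Notch1*, the most abundant of each pathway list per length, and the 3 genes nearest in pattern to *Bmp10*, *Nog*, *Bmp6* and *Bmp4*. *Acvrl1*, *Tll1*, *Tll2*, *Atoh8*, *Smad7* and the orders of the Myocardial and Mesenchymal sums were picked after values were seen. Of marker lists not described above, under the wildtype and mutant labels, sums were 956 to 1279 and 1043 to 1152 CPM (Endothelial), 1606 to 2043 and 1476 to 1634 (VSMC), 172 to 329 and 197 to 253 (Epicardial), 23.6 to 36.4 and 32.5 to 40.5 (Neural crest and glia), 96.3 to 149 and 99.9 to 121 (Macrophage), and 10.7 to 14.2 and 9.07 to 11.9 (Endoderm). *Foxd3*, *Nkx2-1* and *Foxa2* were not listed. Proteins, single-cell data and patients' variants were not analysed here.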

Additional observations from a re-analysis of the deposited data

How the results depend on the processing

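With DESeq2's Wald test 3 of the 10 genes and 742 of all genes were called, in place of 0 and 6 by edgeR. An adjusted p of at most 0.01 left 2 genes in all. Leaving out each library in turn gave between 0 and 6 of the 10 genes and between 1 and 2593 of all genes, the upper values without wildtype replicate 1, and leaving out any other library gave 0 of the 10 and at most 3 genes in all. With the replicate number as a block 8 of the 10 and 1577 of all genes were called, and with GC and length offsets and the block 8 and 2256. With wildtype replicates 2 and 3 exchanged in the block, 0 of the 10 and 83 of all genes were called. The numbers were not taken as a pairing, because the deviations of replicates 1 correlated at 0.096, those of replicates 2 at 0.16 and those of replicates 3 at 0.42 over 16655 genes, and mutant replicate 2 correlated best with wildtype replicate 1 (0.28). Scaling by library size only moved the median over all genes, in log2 fold change, from 0.011 to 0.11. It took the genes without overlap from 5 to 6 of 10 (*Bmp2* added). The share of all genes without overlap under this scaling was not computed, so that count has no background. The same scaling turned the sign of *Gdf6* (0.091), *Nbl1* (0.080), *Bmpr1a* (0.032) and *Bmpr2* (0.053). With the mean of the Myocardial markers as a covariate the sign turned for *Bmp4* (−0.59), *Bmp7* (0.047), *Bmp10* (1.87), *Grem1* (−1.13), *Bmp3* (−1.03), *Fstl1* (−0.20), *Twsg1* (−0.18), *Smoc2* (−0.49), *Acvr1* (−0.075), *Id1* (−0.031), *Id2* (−0.23) and *Tbx20* (−0.023). Smaller turns were those of *Gdf6* with the block (0.014, and 0.012 exchanged), *Nbl1* with limma-voom (0.0044) and *Eng* with the offsets (−0.10, and −0.096 with the block). With 1 library left out, log2 fold changes that took both signs ranged from −3.35 to 0.42 for *Bmp10*, −0.16 to 3.59 for *Grem1*, −0.19 to 1.31 for *Bmp3*, −0.24 to 0.18 for *Gdf6*, −0.039 to 0.16 for *Twsg1*, −0.21 to 0.19 for *Nbl1*, −0.062 to 0.40 for *Smoc2*, −0.12 to 0.027 for *Bmpr1a*, −0.11 to 0.070 for *Bmpr2* and −0.12 to 0.13 for *Eng*. The causes were not tested. *Bmp2*, *Bmp5*, *Bmp6*, *Nog*, *Bmper* and *Chrdl1* kept their sign in all 17 alternatives. DESeq2 gave no p for *Bmp10* and *Grem1*. With 3 libraries a label, single-gene permutation tests cannot pass the threshold.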
